A study of Mus musculus with 6 samples.

Results

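The Ly6 genes encode small cysteine-rich proteins that are held at the cell surface by a glycosylphosphatidylinositol anchor. In the mouse, many of them lie side by side on chromosome 15 as products of repeated gene duplication. Their proteins are classical surface antigens of blood cells, used to tell stem, progenitor, monocytic and granulocytic cells apart. The 5 genes described here were Ly6e, a widely expressed member; Ly6a, which encodes the stem cell antigen Sca-1; Ly6c1 and Ly6c2, a paralogous pair that encodes Ly-6C, an antigen best known from monocytes; and Ly6g, whose protein marks neutrophils. All ATAC-seq peaks that overlapped the body of one of these genes or the 15 kb on either side of it (GENCODE M21 gene models) were taken. They comprised 95 of the 438111 peaks of the 6 lists, and merged into 21 of 112852 regions of the genome.

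ATAC-seq maps open chromatin through the insertion of adapters by the Tn5 transposase. It was performed on LSCs, the L-GMPs of a murine acute myeloid leukemia driven by retroviral MLL-AF9, in 3 control samples and in 3 samples exposed to MMF (mycophenolate mofetil). The labels give the exposure as 24 h, while the study's methods and figure legends differ from each other in both dose and duration, so no dose is given here. MMF inhibits IMPDH, which cells need to make guanine nucleotides. Both groups carried MLL-AF9, although the labels give the genotype as WT and the tissue as Blood, and both were cultured with 20% FBS and 10 ng/ml mouse IL3. The labels give no age, sex or strain of the mice, and by the study's methods the leukemias were made in young adult C57BL/6 J mice of both sexes. The methods say in general that data come from biologically independent experiments or samples. They do not say for these libraries which mouse or culture each came from, so p-values measure the spread between these samples. Products of this family were used to isolate these cells: LSCs were identified with antibodies that included Sca-1 and, among the lineage markers, Gr-1, which binds the Ly6g and Ly-6C proteins. Cells were sorted again after treatment, with a gate that is not given in the sources used here. By GENCODE M21 (chromosome 15, mm10) Ly6e (ENSMUSG00000022587.14) lies on the plus strand at chr15:74955051-74959905 and Ly6g (ENSMUSG00000022582.4) at chr15:75155240-75159126. On the minus strand, Ly6a (ENSMUSG00000075602.10) lies at chr15:74994877-74998031, Ly6c1 (ENSMUSG00000079018.10) at chr15:75044018-75048830 and Ly6c2 (ENSMUSG00000022584.14) at chr15:75108158-75111970. The comparison asks where chromatin at the Ly6 genes was open in LSCs and whether it differed after MMF.

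Each control list had 58496 to 63911 peaks and each MMF list 80893 to 86556, while the genome-wide background of reads over 150 bp, which follows depth, was 0.620 to 0.729 in control and 0.676 to 0.909 in MMF samples. Promoters of Kit, Ptprc, Hoxa9 and Meis1 held a peak in all 6 lists. Those of Cd34, Fcgr3 and Elane held one in 5, 4 and 4 lists, and that of the granule enzyme Mpo in none. Promoters of 4 T cell and 4 B cell markers held no peak in any list. Of the other markers, Klf1, Pf4, Itga2b and Col1a1 held one in all 6.

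The sequences around the main regions are shown first, because the Ly6 regions are in part copies of each other. A 643 bp region with a peak in all 6 lists lay 13.5 kb upstream of the Ly6c1 start (chr15:75062098-75062740, GRCm38, between genes). Its counterparts in the neighbouring windows lay 6.9 kb upstream of the Ly6c2 start and 13.2 kb upstream of the Ly6g start. The 200 bases around the Ly6c1 summit are printed from the minus strand, and the stretches that align with them upstream of Ly6c2 and Ly6g from the plus strand. Capitals mark bases that differ from the Ly6c1 copy.
Ly6c1 copy (chr15:75062247-75062446): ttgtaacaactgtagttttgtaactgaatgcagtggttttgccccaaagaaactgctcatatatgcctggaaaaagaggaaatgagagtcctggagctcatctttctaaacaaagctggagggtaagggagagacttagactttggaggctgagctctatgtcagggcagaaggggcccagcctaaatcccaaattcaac
Ly6c2 copy (chr15:75118704-75118902): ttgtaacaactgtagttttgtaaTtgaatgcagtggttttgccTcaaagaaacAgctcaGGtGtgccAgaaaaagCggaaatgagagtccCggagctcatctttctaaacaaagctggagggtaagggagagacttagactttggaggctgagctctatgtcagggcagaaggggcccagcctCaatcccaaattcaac
Ly6g copy (chr15:75141940-75142138): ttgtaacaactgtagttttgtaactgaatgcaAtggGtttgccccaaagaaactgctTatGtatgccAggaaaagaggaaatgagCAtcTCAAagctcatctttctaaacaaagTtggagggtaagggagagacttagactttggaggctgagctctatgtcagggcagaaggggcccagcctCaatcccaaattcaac

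Within this stretch 10 of 199 bases of the Ly6c2 copy and 13 of 199 bases of the Ly6g copy differed from the Ly6c1 copy. How the authors placed reads that match several copies is not given in the sources used here, so values of such copies are less certain than those of single-copy regions. Windows of 200 bp around 12 of the 21 summits had a copy elsewhere in the genome with at least 90% identity over 80% of their length, and 5 of these 12 windows were among the regions with a peak in all 6 lists. None of the 6 regions at Ly6e and neither the region 9.3 kb downstream of the Ly6a start nor that 2.0 kb upstream of Ly6g had such a copy. The window of this Ly6g region did have 9 copies of at least 80% identity, the closest at 89.7%. Parts of the Ly6a region aligned elsewhere in the cluster at 77.2 to 85.8% identity.

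The promoters of Ly6c2, Ly6g and Ly6c1 are printed because these genes are close relatives and differed in whether a peak was called there. They are the bases before the start in the direction of transcription, from the RefSeq promoter table (GRCm38.p6). That table had entries for 3 of the 5 genes. The Ly6c1 and Ly6c2 stretches end at the RefSeq start, and that of Ly6g ends at the GENCODE start, 21 bases before the RefSeq one. Capitals mark consensus matches on either strand, which are GAGGAAGT (PU.1, the ETS factor of myeloid cells) in Ly6c2 and Ly6g, AACCACA (RUNX) in Ly6c2, CCAAT (NF-Y) in Ly6c1 and Ly6g and TTGCNNAA (C/EBP, on the reverse strand) in Ly6g.
Ly6c2 promoter (chr15:75111972-75112221, minus strand): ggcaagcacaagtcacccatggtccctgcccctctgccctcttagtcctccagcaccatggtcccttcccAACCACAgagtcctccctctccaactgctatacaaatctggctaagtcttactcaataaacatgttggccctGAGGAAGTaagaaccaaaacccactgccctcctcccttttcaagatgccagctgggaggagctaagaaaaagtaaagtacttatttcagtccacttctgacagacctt
Ly6g promoter (chr15:75155011-75155239, plus strand): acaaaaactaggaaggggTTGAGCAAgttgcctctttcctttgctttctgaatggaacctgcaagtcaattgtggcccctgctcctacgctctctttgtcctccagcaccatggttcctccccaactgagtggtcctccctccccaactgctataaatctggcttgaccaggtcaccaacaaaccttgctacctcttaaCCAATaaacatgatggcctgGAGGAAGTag
Ly6c1 promoter (chr15:75048838-75049087, minus strand): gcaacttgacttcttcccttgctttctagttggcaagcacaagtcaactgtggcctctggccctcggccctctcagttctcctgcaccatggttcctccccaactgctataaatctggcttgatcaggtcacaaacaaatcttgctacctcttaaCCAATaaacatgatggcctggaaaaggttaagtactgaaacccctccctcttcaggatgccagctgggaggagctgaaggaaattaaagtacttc

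A peak within 1 kb of a start was present in 6 of 6 lists at Ly6c2 and at Ly6e, in 4 of 6 at Ly6g and in 0 of 6 at Ly6c1 and at Ly6a. The PU.1 letters began 108 bases before the RefSeq start in Ly6c2 and 31 bases before it in Ly6g, and were not found in the Ly6c1 window. A further match in Ly6c2 lay just after the start and is not printed. Of 32851 promoter windows in that table, 3.2% held this match. A match is a description of sequence only, and no binding was measured. Over the 250 bases before the RefSeq start, an alignment of the Ly6c1 and Ly6c2 promoters had identical bases in 57.7% of its columns, that of Ly6c1 and Ly6g in 58.5% and that of Ly6c2 and Ly6g in 42.5%. The alignments ran end to end, and 68 of 284, 88 of 294 and 154 of 327 columns held a gap. These shares are therefore lower than identity over the aligned bases.

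**Figure D1:**
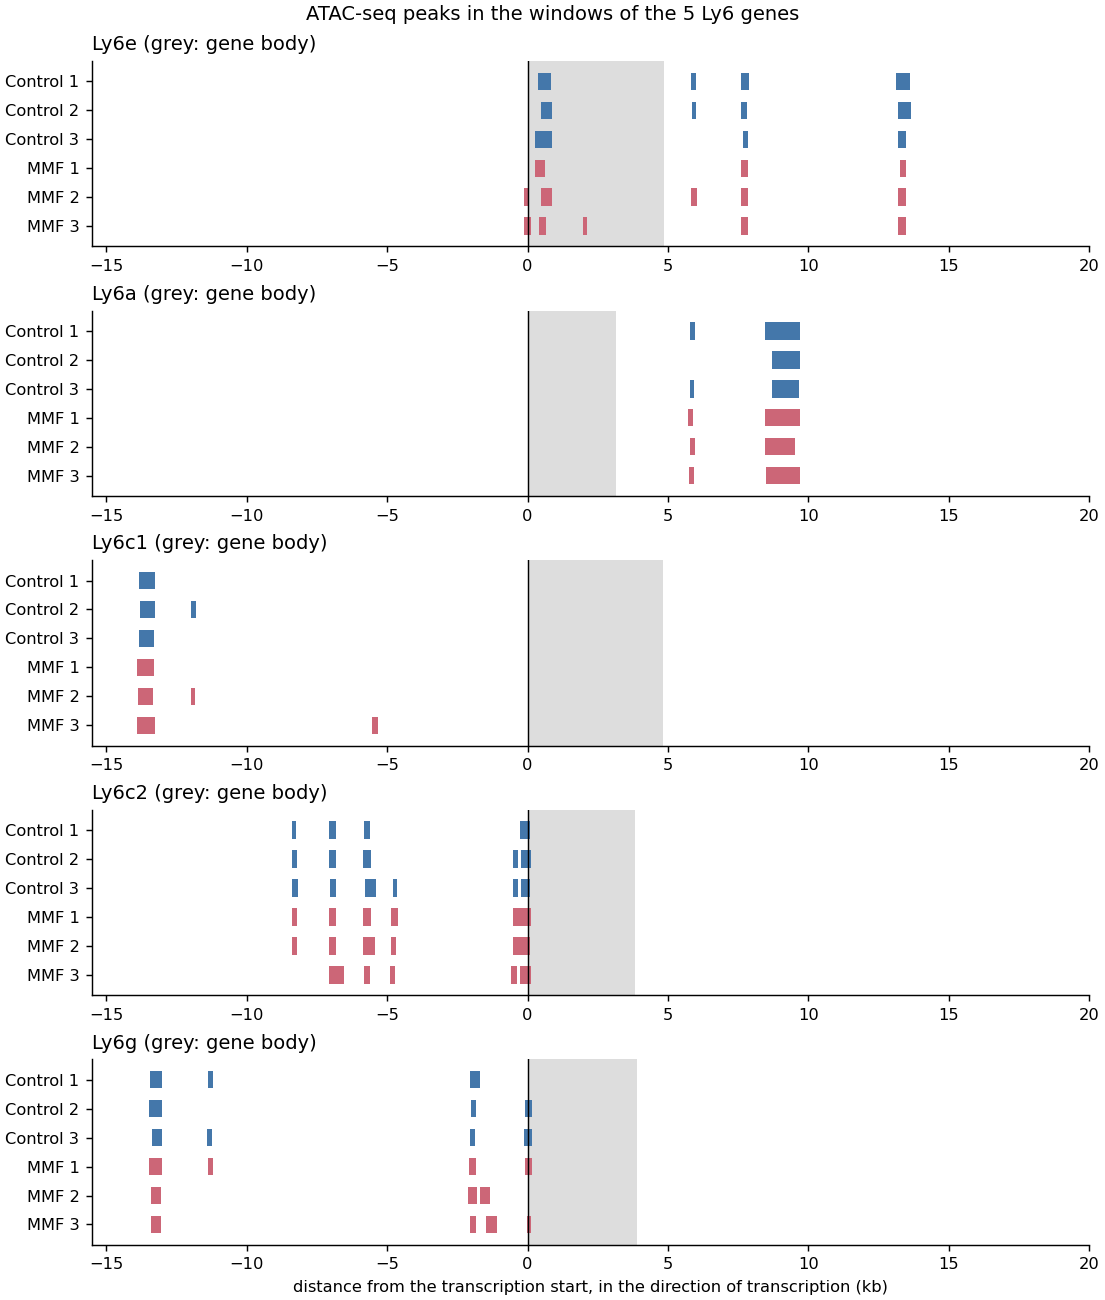
Peaks of each sample in the windows of the 5 genes, placed by distance in kb from the transcription start in the direction of transcription, with 1 row per sample (blue, control; red, MMF) and the gene body in grey. Peaks lie at the start of Ly6c2 in all 6 samples and close to that of Ly6e, while Ly6a and Ly6c1 have peaks only away from their starts.

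Most Ly6 regions were present in both groups. Of the 21 regions, 10 (47.6%) had a peak in all 6 lists, against 36.5% of all regions of the genome. No region was gained, that is, present in all 3 MMF lists and no control list, and none was lost in the reverse sense. Over the genome 6.0% of regions were gained and 0.182% lost by the same count. Asking for 2 of 3 lists of a group instead, 2 Ly6 regions were gained and none was lost, against 13.6% and 1.02% of all regions. With all lists cut to equal length, 1 was lost and none gained, where 1.37% of regions were lost and 2.35% gained. A missing peak says that none was called, not that chromatin was closed. In bulk samples, fewer cells with open chromatin and less opening per cell cannot be told apart. Among the 21 regions, 6 were present in more MMF than control lists, 3 in more control than MMF lists and 12 in as many, and 4 were seen in MMF lists only, in 1 or 2 of them. The MMF lists were longer and these counts were not made over all regions, so they are not read as particular to Ly6.

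Peaks in the Ly6 windows numbered 14, 15 and 16 in the control lists and 15, 17 and 18 in the MMF lists, so that the groups overlapped. In these windows no gene had more peaks in every MMF list than in every control list. The Ly6e window held 4, 4 and 3 peaks in control and 3, 5 and 5 in MMF samples, that of Ly6a 2, 1 and 2 against 2, 2 and 2, and that of Ly6c1 1, 2 and 1 against 1, 2 and 2. The Ly6c2 window held 4, 5 and 6 against 5, 5 and 5, and that of Ly6g 3, 3 and 4 against 4, 3 and 4. Differences in mean count were 0.667 for Ly6e, 0.333 for Ly6a, Ly6c1 and Ly6g, and 0.0 for Ly6c2, with p = 0.6 for Ly6e and 1.0 for the other four (exact permutation test, two-sided, n = 3 per group). The median difference over the 18554 protein-coding genes with a peak in their window was 1.0 peak, and in 24.0% of them every MMF list held more peaks than every control list, with the reverse in 0.194%.

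Levels at the 10 shared regions, those with a peak in every list, were compared by fold enrichment, the ratio of reads over a peak's summit to the local background as MACS2 gives it. They were also compared by summit reads per background, that is, scaled to the sample's background over the whole genome and so to depth. The main test ranked the 41182 regions shared by all lists within each sample on fold enrichment, turned ranks into normal scores and fitted these with limma. It placed no Ly6 region past an adjusted p of 0.05, where 1.44% of shared regions were called higher and 0.425% lower with MMF. At an unadjusted p under 0.05 it gave 4 of the 10 regions, against 23.2% of all shared regions. With any 1 sample left out it called at most 0.0209% of shared regions higher and 0.0% lower. On log2 summit reads per background, limma called 4 of the 10 higher and none lower, where 18.6% of shared regions were called higher and 0.969% lower. On log2 fold enrichment it called 2 of the 10 higher and none lower, against 11.3% and 0.236%. With control sample 1, 2 or 3 left out, the fit on summit reads per background called 14.3%, 14.9% and 16.3% of shared regions higher and 0.573%, 0.545% and 0.536% lower. With MMF sample 1, 2 or 3 left out, it called 12.1%, 11.1% and 13.1% higher and 0.445%, 0.532% and 0.487% lower. The 2 Ly6g regions were called in each of these 6 fits. The Ly6a region was not called without control sample 1 or MMF sample 2, nor the Ly6c1 region without control sample 2 or MMF sample 1 or 3. Over all shared regions these measures also stood above 0, with a median difference of 0.17 and 0.16 on the log2 scale. The median over the 10 regions was -0.06 in score against -0.07 over all shared regions, 0.41 against 0.17 in log2 summit reads per background and 0.21 against 0.16 in log2 fold enrichment.

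By fold enrichment, 5 of the 10 regions were higher in every MMF sample than in every control sample and 1 was lower in every one, against 27.2% and 3.97% of shared regions. By summit reads per background 5 were higher and none lower, against 29.1% and 7.68%. By percentile rank within the list 4 were higher and 1 lower, against 25.0% and 5.12%. With 3 samples against 3, the smallest p an exact permutation test can give is 0.1, which each region without overlap reached.

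**Figure D2:**
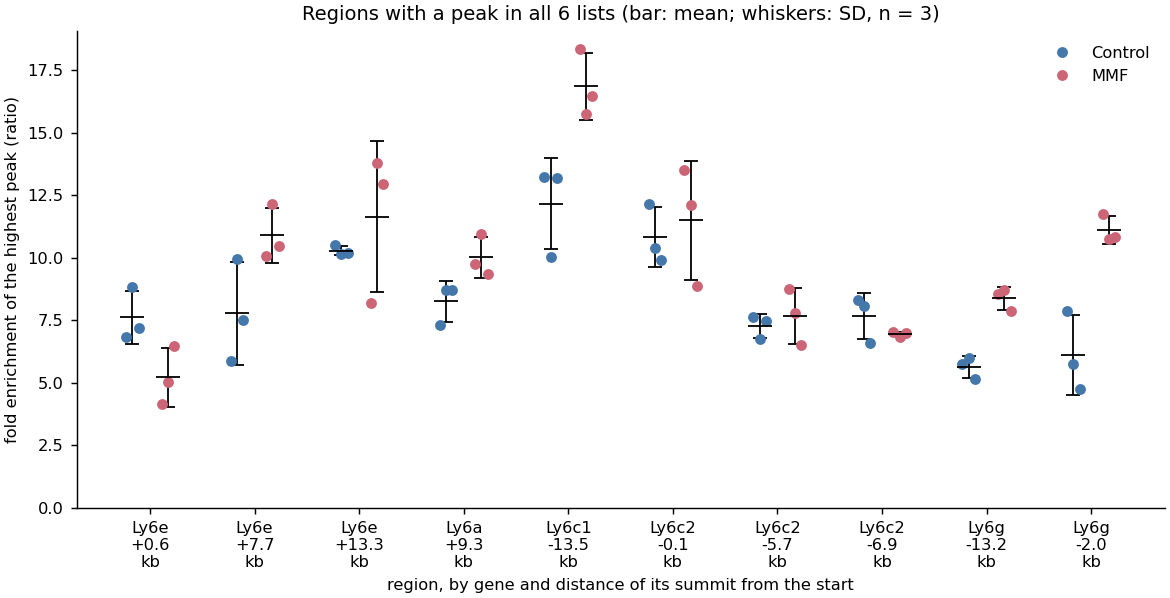
Fold enrichment of the 10 regions with a peak in all 6 lists, by gene and distance of the summit from the start in kb (points, samples; horizontal bar, mean; whiskers, SD, n = 3). Both Ly6g regions, the Ly6c1 and Ly6a regions and the Ly6e region at 7.7 kb lie higher in every MMF than every control sample. The Ly6e region 0.6 kb after the start lies lower. The 3 Ly6c2 regions and the Ly6e region at 13.3 kb overlap between groups.

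Ly6g held the regions with the largest ratios among the 10. Its protein marks neutrophils and is bound by the Gr-1 antibody. The region 2.0 kb upstream of its start (chr15:75153138-75153535, between genes) had a fold enrichment of 7.86, 5.76 and 4.73 in controls and 11.7, 10.7 and 10.8 with MMF. Every MMF sample stood above every control sample. Summits held 15, 9 and 7 reads in control and 25, 21 and 21 in MMF samples, few enough that counting error is large in each. Mean fold enrichment went from 6.12 ± 1.59 (SD, n = 3) without MMF to 11.1 ± 0.560 (SD, n = 3) with it, a ratio of 1.81. Its difference in score was 0.99 (SE 0.30, limma adjusted p = 0.114). On log2 summit reads per background the difference was 1.02 (SE 0.23, limma adjusted p = 0.0121), and on log2 fold enrichment 0.89 (SE 0.19, limma adjusted p = 0.0221).

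The PU.1 letters lay at the summit of this region, beginning 6 bases before it. The 200 bases around the summit, on the plus strand, are printed with the match in capitals.
Ly6g region 2.0 kb upstream (chr15:75153176-75153375): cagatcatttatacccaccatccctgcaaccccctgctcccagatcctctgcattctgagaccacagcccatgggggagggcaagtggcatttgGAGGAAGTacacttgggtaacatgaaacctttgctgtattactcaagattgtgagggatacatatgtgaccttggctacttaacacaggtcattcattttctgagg

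The second shared region of Ly6g was the copy 13.2 kb upstream (chr15:75141749-75142236, between genes). Its fold enrichment was 5.75, 6.01 and 5.14 in control and 8.54, 8.72 and 7.87 in MMF samples. The groups did not overlap, and the spread within each was small. Its summits held 17, 16 and 13 reads in control and 42, 34 and 28 in MMF samples. Scaled to the genome-wide background these gave means of 22.5 ± 1.31 and 45.2 ± 3.48 (SD, n = 3 each), a ratio of 2.01. The difference was 1.01 on log2 summit reads per background (SE 0.16, limma adjusted p = 0.00308), 0.57 on log2 fold enrichment (SE 0.13, limma adjusted p = 0.0274) and 0.45 in score (SE 0.21, limma adjusted p = 0.231). Local background at this region was 2.13, 1.83 and 1.73 reads in control and 4.04, 3.02 and 2.69 in MMF samples, higher in every MMF sample, so the fold enrichment gave a smaller ratio, 1.49, than the scaled reads.

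The other Ly6g regions were weak. A peak at the start itself (chr15:75155127-75155397, with its summit in the 5' UTR) was called in control samples 2 and 3 and in MMF samples 1 and 3, with a fold enrichment of 4.18 to 4.77 and 6 to 9 reads. That region was therefore no more frequent in either group. A region 1.4 kb upstream was called in MMF samples 2 and 3 only, at 6.34 and 4.39, and a region 11.3 kb upstream in control samples 1 and 3 and in MMF sample 1, at 5.03 to 6.07.

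The Ly6c1 region 13.5 kb upstream had the highest mean fold enrichment of the 10 regions in both groups. It stood at 13.2, 10.0 and 13.2 in controls and at 18.3, 15.8 and 16.5 with MMF, with no overlap. Summit reads were 38, 30 and 33 in control and 74, 54 and 54 in MMF samples, and scaled to background they gave 49.6 ± 5.39 (SD, n = 3) and 79.2 ± 2.50 (SD, n = 3), a ratio of 1.6. The difference was 0.68 on log2 summit reads per background (SE 0.16, limma adjusted p = 0.0169). It was 0.48 on log2 fold enrichment (SE 0.15, limma adjusted p = 0.0803) and 0.61 in score (SE 0.25, limma adjusted p = 0.188), both short of the threshold. The gene's other regions, 5.5 and 11.9 kb upstream, were called in 1 and 2 lists. Around the summit of the former lay a repeated sequence with 106 copies of at least 90% identity elsewhere in the genome.

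Ly6c2, which encodes the same antigen, showed no such separation. Its promoter region (chr15:75111845-75112548, summit 124 bp before the start) had a fold enrichment of 12.2, 10.4 and 9.89 in control and 13.5, 12.1 and 8.88 in MMF samples. The groups overlapped, and MMF samples held both the highest and the lowest value. The difference was 0.07 on log2 fold enrichment (95% interval -0.34 to 0.49, limma adjusted p = 0.853) and 0.24 on log2 summit reads per background (95% interval -0.20 to 0.69, limma adjusted p = 0.441). In control samples 2 and 3 and MMF sample 3 a second, lower peak lay within this region, and the higher value was taken. A copy of 97.0% identity lies at the start of the transcribed pseudogene I830127L07Rik, where a peak was called in 5 of 6 lists. Stretches at the starts of Ly6a and Ly6c1 aligned with this promoter at 77.2% and 77.9% identity and held no peak in any list. At the region 5.7 kb upstream of the Ly6c2 start the fold enrichment was 7.65, 6.74 and 7.46 in control and 8.75, 7.79 and 6.51 in MMF samples. At the region 6.9 kb upstream it was 8.31, 8.07 and 6.61 in control and 7.03, 6.85 and 6.98 in MMF samples, so that the groups overlapped at both. The difference at the latter was -0.03 on log2 summit reads per background (95% interval -0.40 to 0.35, limma adjusted p = 0.936) and -0.64 in score (SE 0.22, limma adjusted p = 0.136). The weaker regions 4.7 and 8.3 kb upstream, were called in 4 and 5 lists.

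The element upstream of Ly6c1 had 8 copies in the cluster, itself included. A peak was called in all 6 lists at 5 of them and in none at 3, with 89.7 to 97.0% identity to the Ly6c1 copy over the aligned bases. The copies of 97.0% and 93.0% identity aligned over only 401 of the 643 bases, and of these the first held no peak and the second a peak in all 6 lists. The others aligned over 604 or more. Among the 3 copies in the windows, the Ly6c1 and Ly6g copies had higher scaled reads in all 3 MMF samples and the Ly6c2 copy did not. This contrast was tested within samples, after the values had been seen. Reads were taken at each peak's own summit, so the copies were not always compared at matching bases. The summit of the Ly6c2 region (chr15:75118914) lay outside the aligned stretch printed above. Ly6g summits lay at -13094, -13143 and -13098 bp from the start in control and at -13146, -13191 and -13212 bp in MMF samples. The log2 ratio of scaled reads of the Ly6g to the Ly6c2 copy was -0.67, -0.64 and -0.47 in control and 0.53, 0.56 and 0.22 in MMF samples, so that the order of these copies was reversed in every MMF sample. The mean difference was 1.03 (exact permutation test, two-sided, p = 0.1, n = 3 per group). For the Ly6c1 to the Ly6c2 copy the log2 ratio was 0.49, 0.26 and 0.87 in control and 1.35, 1.23 and 1.17 in MMF samples, without overlap and with a mean difference of 0.71 (exact permutation test, two-sided, p = 0.1, n = 3 per group). Of the 3 pairs compared, that of Ly6g and Ly6c1 overlapped between groups, with a mean difference of 0.33 (exact permutation test, two-sided, p = 0.2, n = 3 per group).

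**Figure D3:**
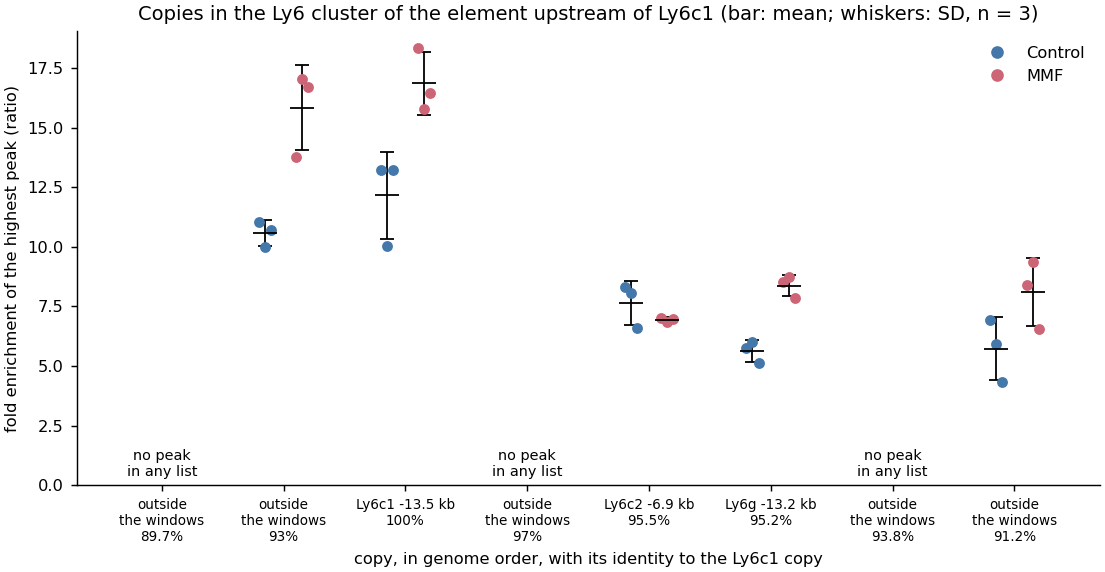
Fold enrichment at the 8 copies of the element upstream of Ly6c1, in genome order, with the identity of each to the Ly6c1 copy in percent (points, samples; horizontal bar, mean; whiskers, SD, n = 3). The Ly6c1 and Ly6g copies and a copy outside the windows with 93.0% identity lie higher in all MMF samples. The Ly6c2 copy and a copy outside the windows with 91.2% identity overlap between groups, and 3 copies have no peak in any list.

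Ly6a had no peak at its start in any list. Its protein, Sca-1, was among the antigens used to isolate LSCs. The shared region of its window lay past the 3' end of the gene, 9.3 kb from the start and 6.2 kb beyond the last exon (chr15:74988316-74989582), and overlapped the pseudogene Gm8000 and the unclassified gene Gm37042. It was nearer to the start of Ly6i, 5274 bp away, than to that of Ly6a. Fold enrichment was 7.32, 8.73 and 8.72 in control and 9.76, 10.9 and 9.33 in MMF samples. The groups did not overlap, but the lowest MMF value and the highest control values were close. The summits held 32, 33 and 34 reads in control and 66, 61 and 53 in MMF samples, and the local background 3.51, 2.90 and 3.02 reads in control and 5.87, 4.67 and 4.79 in MMF samples. On log2 summit reads per background the difference was 0.70 (SE 0.17, limma adjusted p = 0.0175), on log2 fold enrichment 0.28 (SE 0.14, limma adjusted p = 0.239) and in score 0.01 (SE 0.23, limma adjusted p = 0.990). A second region, 5.9 kb from the start, was called in 5 lists at 3.50 to 5.56, and its 200 bp window had a copy of 99.4% identity.

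At Ly6e the region 0.6 kb after the start stood lower with MMF, without passing the test. The Ly6e protein is found on many cell types and is known from studies of viral entry. This region (chr15:74955302-74955939) had its summit in the 5' UTR, 566 bp after the first start and 36 bp from another annotated start of the gene. Its fold enrichment was 6.84, 8.82 and 7.19 in control and 4.15, 5.03 and 6.48 in MMF samples, lower in every MMF sample. Summit reads were 16, 20 and 16 in control and 10, 10 and 15 in MMF samples. The difference was -1.38 in score (SE 0.35, limma adjusted p = 0.0779), -0.75 on log2 summit reads per background (SE 0.25, limma adjusted p = 0.0624) and -0.56 on log2 fold enrichment (SE 0.19, limma adjusted p = 0.0917), all short of the threshold. By score it lay at percentile 0.3 of all shared regions, the lowest of the 10. On scaled reads the groups overlapped, since MMF sample 3 (22.2) stood above control sample 1 (22.0). A peak directly at the first start was called in MMF samples 2 and 3 only, with a fold enrichment of 4.09 and 4.07.

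Downstream of Ly6e the region 7.7 kb from the start (chr15:74962649-74962953, between genes) had a fold enrichment of 5.86, 9.95 and 7.52 in control and 10.1, 12.1 and 10.5 in MMF samples. The highest control sample came close to the lowest MMF sample. The difference was 0.57 on log2 summit reads per background (SE 0.21, limma adjusted p = 0.0834) and 0.36 in score (SE 0.30, limma adjusted p = 0.504). The region 13.3 kb from the start overlapped between groups, with 10.5, 10.2 and 10.2 in control and 8.18, 13.8 and 13 in MMF samples. The regions 2.0 and 5.9 kb from the start, were called in 1 and 3 lists.

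**Figure D4:**
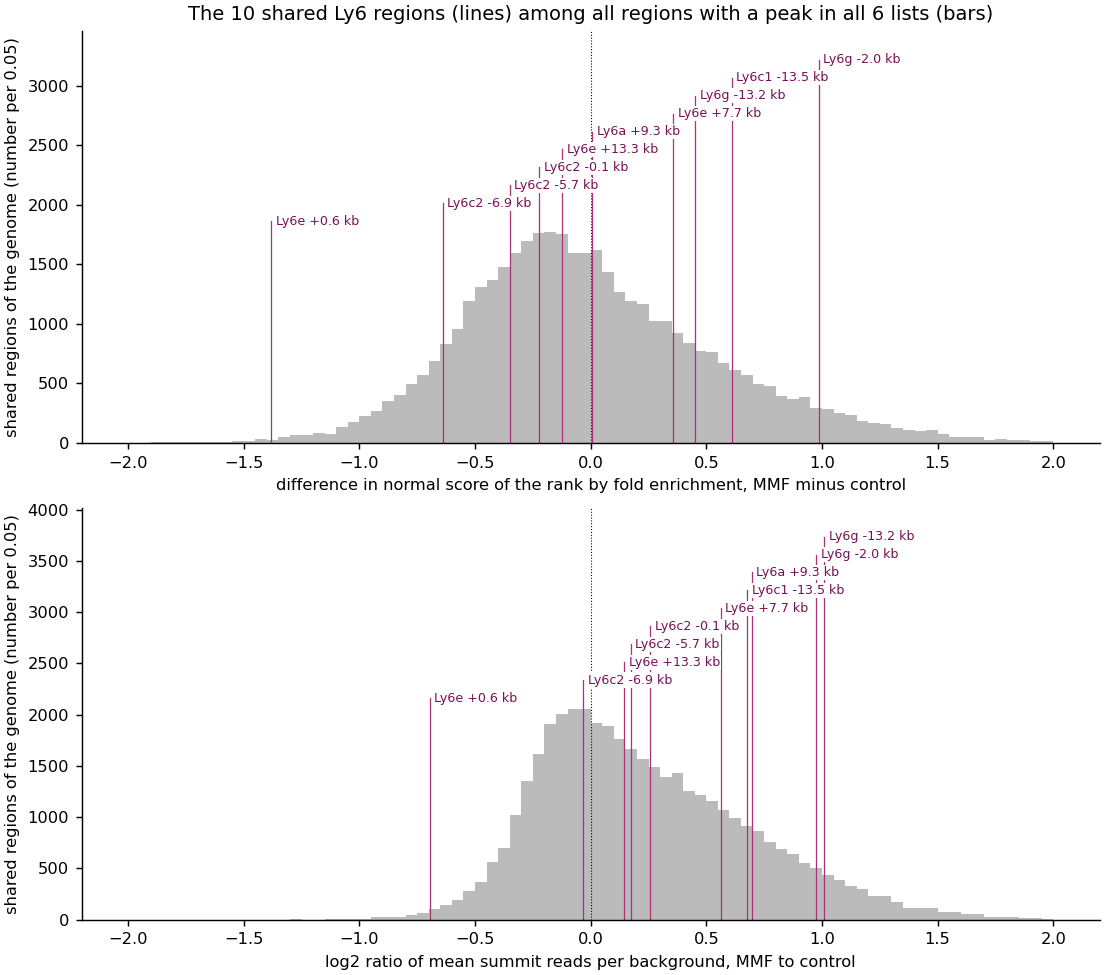
Differences between MMF and control for the 10 Ly6 regions (lines) among all 41182 regions with a peak in all 6 lists (grey bars, number of regions per 0.05). The upper panel shows scores from ranks on fold enrichment and the lower panel the log2 ratio of mean summit reads per background, with differences of 2 or more in size not drawn. In both, the Ly6e region 0.6 kb after the start lies far to the left and both Ly6g regions lie right of 0.

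The highest peak of each window was ranked within its list as a percentile by fold enrichment. In the Ly6g window it stood at 59.8, 42.2 and 28.3 in control and at 77.5, 75.2 and 76.9 in MMF samples, in that of Ly6c1 at 85.3, 72.4 and 85.8 against 96.0, 92.2 and 94.8, and in that of Ly6a at 55.3, 65.1 and 65.4 against 67.7, 75.9 and 68.9. These groups did not overlap, with differences of 33.1, 13.1 and 8.89 percentile points (exact permutation test, two-sided, p = 0.1 for each, n = 3 per group). The Ly6g values were not all of 1 region. They came from the region 2.0 kb upstream in control sample 1 and every MMF sample. In control sample 2 the value came from the region 13.2 kb upstream and in control sample 3 from that 11.3 kb upstream. These are peaks also described above, so the ranks are not separate evidence. Ranks were taken within lists of unequal length. With lists cut to equal length the differences were 25.1 for Ly6g and 11.6 for Ly6c1 (exact permutation test, two-sided, p = 0.1 for each, n = 3 per group), while that of Ly6a was reversed, at -1.95 (exact permutation test, two-sided, p = 0.9, n = 3 per group). In the Ly6e and Ly6c2 windows they overlapped, with differences of 6.68 and 0.94 percentile points (exact permutation test, two-sided, p = 0.4 and p = 0.9, n = 3 per group), and both were negative at equal length (-0.78 and -7.85). Among the protein-coding genes with a peak in their window, 19.6% had a higher rank in every MMF list and 4.9% a lower one, and the median difference was 1.26 percentile points.

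Consensus motifs were sought on both strands in the 200 bp around the summit of the best-ranked peak of each region. GAGGAAGT (PU.1) was present in 5 of the 21 regions and in 2 of the 10 shared ones, against 8.28% of all regions of the genome. The 5 were the region directly at the first start of Ly6e, called in MMF samples 2 and 3 only, those at the starts of Ly6g and Ly6c2, that 2.0 kb upstream of Ly6g and that 5.5 kb upstream of Ly6c1, the repeated sequence. TTGCNNAA (C/EBP) was present in none of the 21, against 15%. CCAAT (NF-Y), held by 23.5% of all regions, was found in 5. Letters for GATA factors, AGATAA, stood in 4 against 6.92% of regions. For RUNX factors, AACCACA was seen in 3 against 10.7%. The KLF letters CCACACCC were also seen in 3 and are held by 2.82%. For AP-1, TGANTCA was seen in 2 against 16.1%. The STAT letters TTCNNNGAA were in 1 region against 6.17%, and so was the IRF consensus, which 2.64% of regions held. No matches of different motifs overlapped, and since many regions are copies of each other, these counts are not independent.

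Relatives of these genes were counted in the same way. Of 16 listed relatives on chromosome 15, 14 had a gene of that name in the annotation. Only Lynx1, whose protein acts on nicotinic acetylcholine receptors, had a promoter peak in all 6 lists, and the other 13 had none in any list. Their windows held 22 regions, 3 of them also counted above in the Ly6e or Ly6a window, of which 9 had a peak in all 6 lists, 2 (9.09%, against 6.0% of all regions) were gained, none was lost and none was called by limma on scores, where 1.44% and 0.425% of shared regions were called higher and lower. On summit reads per background 1 was called higher, the region 9.3 kb from the Ly6a start described above. Of 15 relatives on other chromosomes, Cd59b, Plaur, Cd177 and Ly6g5b had a promoter peak in all 6 lists and 7 had none. Cd59b encodes a complement inhibitor, Plaur the urokinase receptor and Cd177 a neutrophil surface antigen. Their windows held 66 regions, of which 26 had a peak in all 6 lists, 4 (6.06%) were gained, none was lost and none was called on scores. On summit reads per background 4 of the 26 were called higher and 1 lower, where 18.6% and 0.969% of shared regions were.

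Likeness of promoter levels was measured over the 6 samples as the distance in log2 summit reads per background. Among 11704 protein-coding genes with a promoter peak in all lists, the nearest to Ly6c2 were Gcnt1 (distance 0.312), Zfp106 (0.316) and Mfng (0.317). Those nearest to Ly6e were Phf10 (0.547), Actn2 (0.635) and Chrnb2 (0.638), so that no gene came as close to Ly6e as these did to Ly6c2. Ly6a, Ly6c1 and Ly6g had no promoter peak in all 6 lists and were not compared.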

How the data were processed

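The labels' processing notes name FastQC, Trim Galore, Bowtie2, MACS2 and mm10, and the methods state that peaks were called on each sample by itself. Versions and options are not given in the sources used here. In the deposited peak lists, fold enrichment is a ratio made by the authors' MACS2, p and q are deposited as −log10 values, and the deposited score was not used. Coordinates were read as GRCm38. Only chromosomes 1 to 19, X and Y were kept, which dropped up to 0.27% of a list's peaks. Peaks were merged over the 6 lists, and a region was present in a sample with an overlap of at least 1 bp. Where a list had several peaks in a region, the highest value was used.

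Whole reads over each summit, and the local background, were solved from fold enrichment, (reads + 1) / (background + 1), and its Poisson p, and came out whole (within 0.05) for at least 99.998% of peaks. Ly6 summits held 6 to 74 reads (median 21), so single values carry large counting error. Shared regions were fitted with limma 3.58.1 (R 4.3.3) without a block, with Benjamini-Hochberg adjustment over all of them. Gene values were compared by exact permutation tests. Copies were found with blastn 2.17.0 and sequences read with pysam 0.24.0. Steps were tested on simulated data.

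Every member, every region of the windows with a peak in all 6 lists and every gained or lost region was given with its values, the rest as counts and ranges. The genes, lists and motifs were chosen with earlier results of these data known. The comparison of copies and the promoter sequences were added after seeing the data. Tried as alternatives were lists cut to one length, a stricter q, windows of 5 and 30 kb, the overlap, the measure, the block and each sample left out. The authors' PePr results were not used.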

Additional observations from a re-analysis of the deposited data

How the results depend on the processing

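No Ly6 region was gained or lost, or called by limma on scores, in the main analysis. With at least 2 of 3 lists of a group, 2 regions were gained (directly at the first Ly6e start and 1.4 kb upstream of Ly6g), against 13.6% of all regions. Leaving out 1 sample gave 0 to 2 gained regions, with the highest value without MMF sample 1 and 1 region, 4.7 kb upstream of Ly6c2, without control sample 3. The share of all regions gained was not counted with a sample left out, so these counts have no background beside them. With lists of equal length 1 region, 8.3 kb upstream of Ly6c2, was lost. Windows of 30 kb added 1 gained region, 23.2 kb beyond Ly6g, and 1 region called lower, 20.8 kb before Ly6e (score difference -1.80, limma adjusted p = 0.0471). Over the genome, 6.0% of regions were gained and 0.425% of shared regions were called lower. The planned overlap rule was met by every peak and could change nothing.

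Limma called 4 regions higher on log2 summit reads per background and 2 (both at Ly6g) on log2 fold enrichment. Leaving out 1 sample on the former, added after seeing the data, gave 3 to 4 higher and 0 to 1 lower. Which calls were lost is given above. Without MMF sample 3 the region 0.6 kb after the Ly6e start was called lower (-1.02, limma adjusted p = 0.0177).

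Equal list length reversed 5 gene differences, in number of peaks for Ly6e (-1.33) and Ly6g (-1.0) and in rank of the highest peak for Ly6e (-0.78), Ly6a (-1.95) and Ly6c2 (-7.85). Windows of 5 kb reversed the rank difference of Ly6a (-0.78). No list had a peak in the 5 kb window of Ly6c1, so its rank difference was 0.0 there, against 13.1 in the main analysis. For Ly6c2 the rank difference ranged from -2.68 to 6.53 with 1 sample left out and was negative without control sample 3 (-0.99), MMF sample 1 (-2.68) or MMF sample 2 (-1.02). With the replicate number as a block, limma on scores called 0 Ly6 regions and 0 of all shared regions. Gene values were then compared by exact sign-flip tests, with a smallest possible p of 0.25. Each gene's mean difference was the same with the block by arithmetic, so this could not show dependence on it. Deviations of same-numbered samples correlated at 0.007 or less, so the numbers were not taken to pair the samples, although each sample correlated best with that of its own number. Causes were not tested.

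Motif counts in the 10 shared regions moved with the window. At 100 bp RUNX, GATA and NF-Y were found in 0, and at 500 bp C/EBP in 1, RUNX in 3, STAT in 2, AP-1 in 3, GATA in 3 and NF-Y in 2. Of the other recomputed values, 178 were not reversed or, for counts such as the GATA matches, stayed within 1.5 times. Gene values could not change side of the 0.05 threshold, since their smallest possible exact p was 0.1, or 0.25 with the block. The Ly6c2 difference in number of peaks, 0.0 in the main analysis, could not be reversed and ranged from -0.667 to 1.33. Depth limits the weak peaks most, since several rested on 6 to 10 reads.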

Other observations

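Between the Ly6c1 and Ly6c2 windows, 21038 bp past the 3' end of Ly6c2, a region outside the windows (chr15:75086206-75087120) held 1394 to 1672 summit reads in control and 1375 to 1859 in MMF samples, against 6 to 74 reads at the Ly6 peaks. Its fold enrichment was 36.4 to 37.4 in control and 36.7 to 37.3 in MMF samples, so the groups overlapped. Whether regions of very high signal were filtered out is not given in the sources used here. Whether these reads reflect open chromatin was not tested.

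A region 21.1 kb upstream of the Ly6c1 gene (chr15:75069906-75070329) lay beyond the 15 kb limit. It was called in control samples 2 and 3, at a fold enrichment of 7.09 and 4.94, and in all 3 MMF samples, at 18.0, 9.25 and 11.4. Summits held 11 and 7 reads in these control samples and 40, 17 and 23 in MMF samples, so counting error is large. A stretch with 86.2% identity to the region 1.4 kb upstream of Ly6g overlapped it. Control sample 1 had no peak there, so the region entered no test over shared regions.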
